A study of Mus musculus with 18 samples.

Results

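Malat1 and Neat1 are neighbouring genes on mouse chromosome 19 whose long noncoding RNAs stay in the nucleus, and both were taken by gene symbol, as 2 of the 13218 loci in a table of long noncoding transcripts of mouse testis germ cells. RNA came from 6 germ cell types of ICR mice, with 3 libraries each: priSG-A at day 6 after birth, priSG-B at day 9, plpSC at day 14, pacSC at day 21, rST at day 35 and elST at day 56. These names are not spelled out in the labels, and the usual reading of SG (spermatogonia), SC (spermatocytes) and ST (spermatids) is used here. All groups share the strain, the tissue and the method of separation, STA-PUT velocity sedimentation, which parts cells by how fast they sink, and so mostly by size, and the labels name no treatment or altered gene. Each type is tied to 1 age, so type and age cannot be told apart. No label says whether the 3 libraries of a type came from separate animals, so the p-values speak for the spread among these libraries alone, and that spread may be technical.

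Malat1 RNA gathers in nuclear speckles, compartments rich in splicing factors, and is one of the most abundant long noncoding RNAs of many mammalian tissues. Neat1 makes a long and a short RNA from one start. The long one is the scaffold of paraspeckles, nuclear bodies that hold RNA-binding proteins such as Nono and Sfpq, while the short one is not sufficient to build them. Male germ cells pass from dividing spermatogonia through the meiotic divisions of spermatocytes to haploid spermatids, whose chromatin is compacted and whose transcription ends as they elongate.

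Malat1 (ENSMUSG00000092341.3) lies on the minus strand at chr19:5795690-5802672 of mm10, and Neat1 (ENSMUSG00000092274.3) lies on the same strand at chr19:5824708-5845478, with 22035 bp between them. GENCODE M21 annotates both as lincRNA with 4 transcripts each. The longest is a single exon of 6983 bases for Malat1 and of 20771 bases for Neat1, while the short polyadenylated Neat1 transcript has 3004 bases. The deposited values are per gene, so the long and short Neat1 RNAs were not measured apart.

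The 3′ ends are printed because they set these RNAs apart from most others and bear on how a library captures them. RNase P cuts both long RNAs just before a tRNA-like structure, and an A-rich tract encoded in the gene pairs with U-rich stretches upstream in a triple helix that takes the place of a poly(A) tail. The sequences run 5′ to 3′ along the RNA, with T for U, from the GENCODE M21 transcripts on mm10. Capitals mark every exact match of 10 bases or more between the last 400 bases of the longest Malat1 and Neat1 transcripts. The Malat1 stretch is chr19:5795982-5796077, bases 6596 to 6691 of the transcript, and 292 annotated bases follow it. The Neat1 stretch is chr19:5824708-5824809, bases 20670 to 20771, and ends with the annotated transcript.
Malat1: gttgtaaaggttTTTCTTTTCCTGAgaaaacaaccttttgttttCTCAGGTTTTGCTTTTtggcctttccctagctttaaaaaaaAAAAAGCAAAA
Neat1: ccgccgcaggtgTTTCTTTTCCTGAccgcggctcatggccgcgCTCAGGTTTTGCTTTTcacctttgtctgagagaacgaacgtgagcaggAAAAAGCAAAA

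The RNAs shared 3 such stretches in the same order: 13 bases and then 16 bases, both T-rich, and 11 bases of the A-rich tract. The bases between them differed. In the last 400 bases of the longest transcript of 11916 other loci of the table, on the transcript's own strand, the 13-base and the 16-base stretch were found in 0 loci and the 11-base stretch in 21 loci (0.176%). In Malat1 the stretches ended 363, 328 and 292 bases before the annotated end, and in Neat1 they ended 77, 43 and 0 bases before it.

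The short Neat1 RNA ends in a conventional poly(A) tail, and its last 50 bases (chr19:5842307-5842356, minus strand, bases 2955 to 3004 of that transcript) are shown for contrast. Capitals mark the poly(A) signal AATAAA, which ends 14 bases before the transcript does.
Neat1 short: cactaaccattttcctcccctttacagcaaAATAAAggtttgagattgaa
The labels name a total RNA extraction and a TruSeq RNA kit. Whether RNA was selected by its poly(A) tail is not given in the sources used here, and how selection would weigh on each RNA was not tested.

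**Figure D1:**
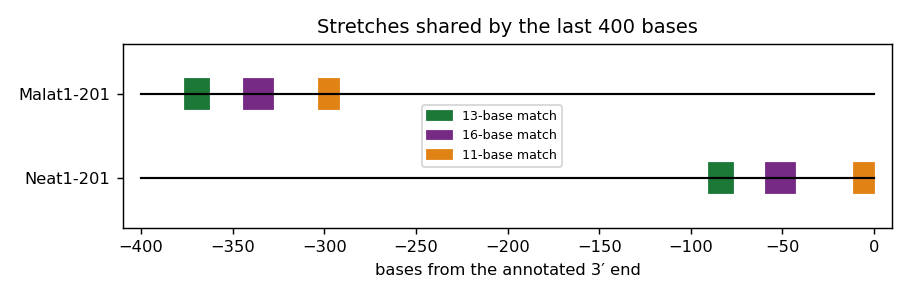
Position of the 3 shared stretches in the last 400 bases of the longest annotated Malat1 and Neat1 transcripts, with bases from the annotated 3′ end on the x axis and 1 line per transcript. The order of the boxes is the same in both, and the Malat1 annotation runs on for 292 bases after the last box while Neat1 ends with it.

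The libraries of a type were often unlike each other, which sets how firmly the levels below can be compared. Values were FPKM, which count fragments for each kilobase of a transcript relative to the fragments of a library, and tests used log2(FPKM + 1), a scale on which changes of low genes look smaller than they are. Each library held 31.7 to 92.5 M (mega) fragments, a depth inferred from the steps of its FPKM values. Pearson's r between libraries of one type, across loci, was 0.03 to 0.98 over 18 pairs, and the closest library was one of the same type in 5 of 18 cases. By these r values, 5 libraries stood apart from both others of their label: replicate 3 of priSG-A, plpSC and pacSC, and replicate 1 of rST and elST. Each was most like a library of another label: priSG-A replicate 3 like pacSC replicate 1, plpSC replicate 3 like elST replicate 2, pacSC replicate 3 like rST replicate 3, and replicates 1 of rST and elST like each other. Whether labels were crossed was not tested, and all values stand under their labels. AY036118, a locus derived from ribosomal RNA, split the libraries as well, at 1998 to 13911 FPKM in 12 libraries and at 7.25 to 36.2 FPKM in the other 6 (all of priSG-B, replicates 1 and 2 of pacSC, and replicate 3 of elST). The table holds long noncoding loci, and 0 of 25 coding genes listed as cell type markers were in it, so the type labels could not be checked by them.

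Malat1 was one of the most abundant loci in every library and varied widely inside 5 of the 6 types. Its rank by FPKM among the 13218 loci ran from 5 to 69, with a median of 10, and its level from 111 to 3183 FPKM, a 28.6-fold range. The 3 priSG-A libraries had 2854, 1393 and 616 FPKM (replicates 1 to 3), with a mean of 1621 ± 1136 (SD, n = 3). The priSG-B libraries had 571, 605 and 448 FPKM, with a mean of 541 ± 82.8 (SD, n = 3). All 3 priSG-B values lay below every priSG-A value. The plpSC libraries had 3183, 1361 and 149 FPKM, with a mean of 1564 ± 1527 (SD, n = 3). The pacSC libraries had 156, 111 and 441 FPKM, with a mean of 236 ± 179 (SD, n = 3). These groups overlapped, since plpSC replicate 3 lay inside the pacSC range, while the other two plpSC libraries lay above it. The rST libraries had 1140, 129 and 287 FPKM, with a mean of 519 ± 544 (SD, n = 3). The elST libraries had 763, 179 and 140 FPKM, with a mean of 361 ± 349 (SD, n = 3). In both spermatid types replicate 1, one of the libraries that stood apart, was the high one.

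Within a type the highest Malat1 level was 1.35 times the lowest in priSG-B, 3.96 times in pacSC, 4.63 times in priSG-A, 5.44 times in elST, 8.86 times in rST and 21.4 times in plpSC. By mean log2 level the types ran priSG-A, plpSC, priSG-B, rST, elST and pacSC from high to low. The ranges of all 5 pairs of neighbours in that order overlapped. In bulk libraries, fewer cells that hold an RNA and less of that RNA per cell cannot be told apart.

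Neat1 was far lower, and as deposited its FPKM varied less. Its level ran from 2.28 to 11.3 FPKM, a 4.97-fold range, and its rank from 175 to 1968 with a median of 357. The priSG-A libraries had 8.13, 11.3 and 11.3 FPKM, with a mean of 10.2 ± 1.83 (SD, n = 3). The priSG-B libraries had 8.61, 8.27 and 5.65 FPKM, with a mean of 7.51 ± 1.62 (SD, n = 3). The lowest priSG-A library lay inside the priSG-B range. The plpSC libraries had 8.99, 6.97 and 2.28 FPKM, with a mean of 6.08 ± 3.44 (SD, n = 3), and replicate 3, which stood apart, had the lowest Neat1 level of all 18. The pacSC libraries had 6.71, 5.14 and 4.48 FPKM, with a mean of 5.45 ± 1.15 (SD, n = 3). The pacSC range lay wholly inside that of plpSC. The rST libraries had 5.73, 6.16 and 3.01 FPKM, with a mean of 4.97 ± 1.71 (SD, n = 3). The elST libraries had 4.75, 5.34 and 5.85 FPKM, with a mean of 5.32 ± 0.551 (SD, n = 3). Unlike Malat1, Neat1 was not raised in FPKM in replicate 1 of rST or elST. Relative to other loci it stood higher there. Its rank was 332 in rST replicate 1, against 1007 and 1509 in the other rST libraries. In elST replicate 1 it was 383, against 1200 and 1028 in the other elST libraries. Fewer loci reached 1 FPKM in these replicates 1, which bears on the ranks. There were 1591 in rST replicate 1, against 2491 and 2492 in the other rST libraries. In elST replicate 1 there were 1695, against 2809 and 2683 in the other elST libraries. By mean log2 level the types ran priSG-A, priSG-B, plpSC, pacSC, elST and rST, and the ranges of all 5 pairs of neighbours overlapped.

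**Figure D2:**
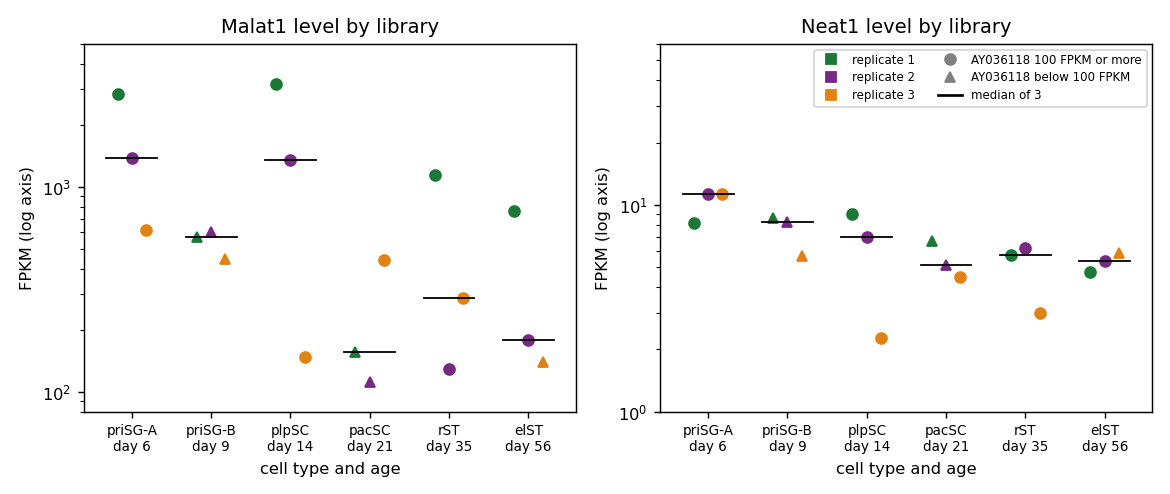
Malat1 (left) and Neat1 (right) in each library, as FPKM on log axes of different range, against cell type and age in days. Points are single libraries coloured by replicate number, triangles mark the 6 libraries with AY036118 below 100 FPKM, and bars are medians of 3; Malat1 spreads from 111 to 3183 FPKM and Neat1 from 2.28 to 11.3 FPKM.

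If all fragments came from the longest transcript, no library had fewer than 42650 fragments of Malat1 or 2016 of Neat1. If all came from the shortest, the fewest were 1678 and 49, with a counting error of 2.44% and 14.3% (counting error alone). The SD of log2(FPKM + 1) over the 18 libraries was 1.54 for Malat1 and 0.50 for Neat1, against a median of 0.78 over the 4117 tested loci. Of these loci, 81.7% varied less than Malat1 and 19.7% varied less than Neat1. Neat1 was also set beside loci of like level, the 836 whose mean log2 level lay within 1 of its own. Their median SD was 1.49, and 49 of them (5.86%) had a lower SD than Neat1. Only 4 loci were as close to the level of Malat1, and 0 of these 4 had a lower SD. The narrow spread of Neat1 depended on the scaling. After quantile normalization, an alternative added after seeing the data, the SD was 1.17 for Neat1 and 1.79 for Malat1, 76.3% of tested loci varied less than Neat1, and so did 44.8% of the 677 loci at its level. Fragments of the short and long RNAs enter one value, so a shift from one to the other would not be seen as such.

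**Figure D3:**
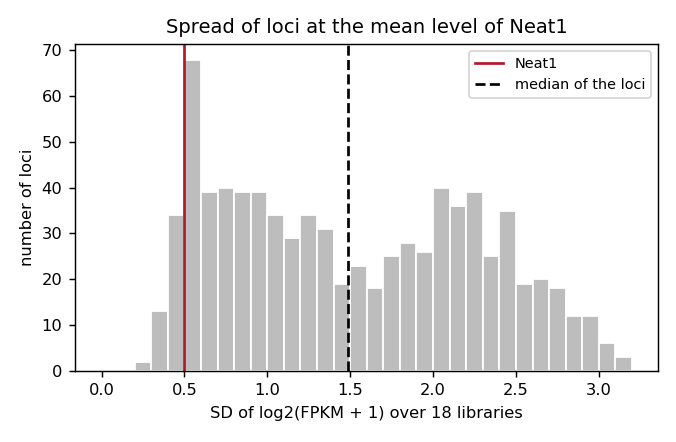
Number of loci (y axis) by SD of log2(FPKM + 1) over the 18 libraries (x axis), for the 836 loci within 1 log2 unit of the mean level of Neat1. The bars leave out the loci with the largest SDs, which lie beyond the last bar. The solid line marks Neat1 at 0.50 and the dashed line the median of the loci at 1.49, so Neat1 sits near the low edge of the distribution on the deposited scale.

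Successive types were then compared over all 4117 tested loci with limma (two-sided, p-values adjusted by Benjamini-Hochberg within each comparison, threshold 0.05), with both genes among the tested loci. Neither gene passed in any of the 5 comparisons of successive ages. In priSG-B against priSG-A, the log2 fold change was -1.33 ± 1.07 (SE) for Malat1 and -0.41 ± 0.51 for Neat1, both with a limma adjusted p of 1, and 0.68% of all tested loci passed. The values of Malat1 did not overlap between these types, and the scatter of the other types enters the error because the fit shares one estimate of the spread. In a fit of only the types compared, Malat1 had an SE of 0.58 (limma adjusted p = 0.305), and 3.67% of loci passed. In plpSC against priSG-B, Malat1 had 0.69 (limma adjusted p = 0.713) and Neat1 -0.39 (limma adjusted p = 0.674), and 1.26% of loci passed.

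The widest change of Malat1 between successive types was the lower level in pacSC than in plpSC, at -2.12 ± 1.07 on the log2 scale (SE, limma adjusted p = 0.305). Neat1 had -0.00 (limma adjusted p = 0.998) in the same comparison, and 0% of loci passed, with 650 at an unadjusted p under 0.05. The median log2 fold change of all tested loci was 0.58 there, and 0.006 with no filter. Without plpSC replicate 3 the value of Malat1 was -3.39 (limma adjusted p = 0.0443), and 28.5% of loci passed. It was -1.19 without plpSC replicate 1 and -1.08 with the AY036118 set as a term, and did not pass in either. Inside the high set it was -0.97, where pacSC is replicate 3 alone, a library that stood apart. In plpSC replicate 3, which holds the low Malat1 level, 1700027A15Rik, a locus that overlaps the spermatid gene Tnp1, was at 874 FPKM, against 0 in both other plpSC libraries, and H19 was at 0.562 FPKM, against 15.3 and 29.6 FPKM. The part of these differences in the result was not tested. In rST against pacSC, Malat1 had 0.81 (limma adjusted p = 0.786) and Neat1 -0.14 (limma adjusted p = 0.943). In elST against rST, Malat1 had -0.38 (limma adjusted p = 0.967) and Neat1 0.12 (limma adjusted p = 0.977). In these last 2 comparisons 0% of loci passed, with 372 and 78 loci at an unadjusted p under 0.05. For plpSC against priSG-A, types that bracket priSG-B in age, Malat1 had -0.64 and Neat1 -0.80, each with a limma adjusted p of 1, and 0% of loci passed, with 8 at an unadjusted p under 0.05. An F test over the 6 types gave limma adjusted p of 0.295 for Malat1 and 0.504 for Neat1, with 0.68% of loci called.

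Leaving out the 5 libraries that stood apart, a choice made after their profiles were seen, moved these calls for Malat1. It was then lower in priSG-B than in priSG-A (-1.89, limma adjusted p = 0.0474), higher in plpSC than in priSG-B (1.95, limma adjusted p = 0.0405) and lower in pacSC than in plpSC (-3.97 ± 0.58, SE, limma adjusted p = 0.00015). In that setting 10.9%, 11.6% and 71.2% of all tested loci passed in these 3 comparisons, so a call there was common. All priSG-B libraries were in the low AY036118 set, and all priSG-A and plpSC libraries in the high one. For these types the set and the type cannot be told apart. Nor can they, without the 5 libraries, in pacSC against plpSC and rST against pacSC. There pacSC keeps replicates 1 and 2, both in the low set, while plpSC replicates 1 and 2 and rST replicates 2 and 3 are in the high one. With all 18 libraries and the set as a term, the signs of both priSG-B comparisons turned (0.23 against priSG-A, and -0.88 for plpSC against priSG-B), and quantile normalization turned the second (-0.91). In rST against pacSC and in elST against rST, where 58.3% and 41.7% of loci passed, Malat1 had 0.54 and -0.28 and did not pass. Neat1 passed in 0 of the 5 successive comparisons without these libraries, with values of -0.37 to 0.30. The F test over the types then gave limma adjusted p of 0.000137 for Malat1 and 0.122 for Neat1, with 95.3% of loci called. The libraries were left out by their likeness across all loci, which removes spread from every test, so these p-values describe the remaining 13 libraries only.

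**Figure D4:**
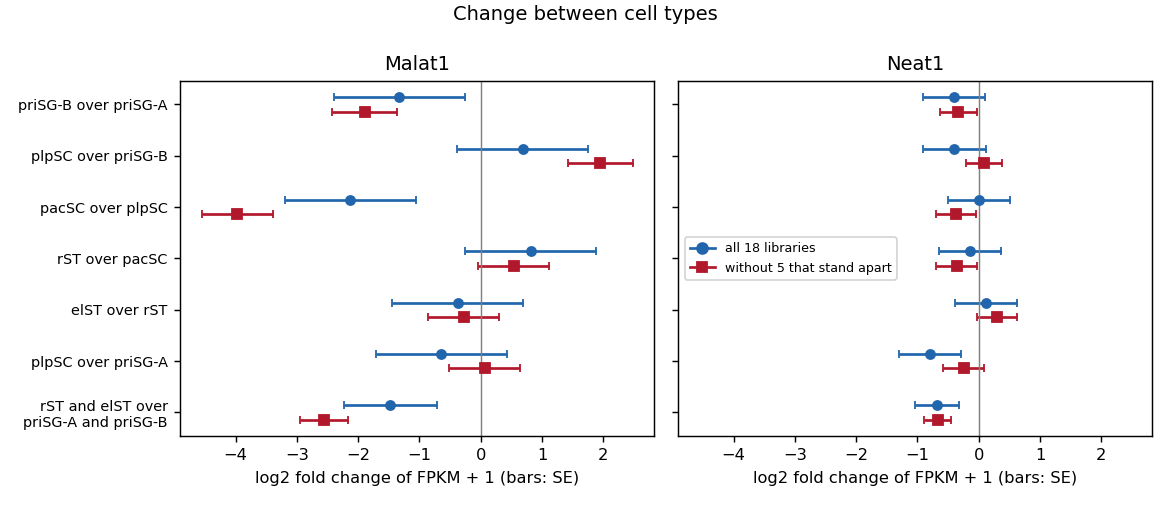
Log2 fold change of FPKM + 1 with its SE (x axis) for Malat1 (left) and Neat1 (right) in 7 comparisons (y axis), with all 18 libraries as circles and without the 5 that stand apart as squares. Malat1 in pacSC over plpSC is at -2.12 with all libraries and at -3.97 without the 5, while every Neat1 value lies between -0.80 and 0.30.

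The spermatid types rST and elST, 6 libraries in all, were set against the spermatogonial types priSG-A and priSG-B, 6 libraries in all, to ask how the latest and earliest cells differ. Neat1 was 3.01, 5.54 and 6.16 FPKM (lowest, median and highest) in the spermatids and 5.65, 8.44 and 11.3 FPKM in the spermatogonia. Only 1 spermatogonial library, priSG-B replicate 3 at 5.65 FPKM, lay inside the spermatid range, and 3 spermatid libraries lay above it. The mean log2 level was 2.59 ± 0.31 in spermatids and 3.27 ± 0.33 in spermatogonia (SD, n = 6 each), a difference of -0.68. An exact two-sided permutation test over the 924 arrangements of these libraries, for Neat1 alone, gave p = 0.0087 (adjusted p = 0.026 over 3 such tests). Over the 16 alternatives to this test the unadjusted exact p was 0.00216 to 0.0317, and the difference was -0.56 or further below 0 in each, the farthest being -1.61 after quantile normalization. In the limma fit over all loci the same difference had an SE of 0.36 and an adjusted p of 0.134, and 0.51% of loci passed. The limma p before adjustment was 0.0768. Neat1 was thus called by the exact permutation test and not by limma, before or after adjustment over loci.

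Malat1 was 129, 233 and 1140 FPKM (lowest, median and highest) in the spermatids and 448, 611 and 2854 FPKM in the spermatogonia. The 4 spermatid libraries other than replicate 1 of rST and of elST all lay below the lowest spermatogonial library. The mean log2 level was 8.26 ± 1.32 in spermatids and 9.73 ± 1.02 in spermatogonia (SD, n = 6 each), a difference of -1.47 (exact permutation p = 0.0584, adjusted p = 0.0877 over 3 tests). The limma fit gave an SE of 0.76 and an adjusted p of 0.128. Without rST replicate 1, the limma value was -1.90 (limma adjusted p = 0.044) and the exact permutation p was 0.0238, in a setting that called 57.2% of all tested loci. Without elST replicate 1 the exact permutation p was 0.0368, and limma called 51.2% of all loci. Across all tested loci the median log2 fold change was 0.55, so both genes lay on the other side of 0 from the typical tested locus. This median depends on the filter, since it was 0.004 with no filter and 1.48 with the filter of 5 FPKM. After quantile normalization, under which that median was 0.04, the values were -2.43 for Malat1 and -1.61 for Neat1, each with a limma adjusted p of 0.102. H19, an imprinted RNA of growing fetal and somatic cells, stood at 6.44 and 12.4 FPKM in these same replicates 1 of rST and elST, against 0.286 to 0.810 FPKM in the other 4 spermatid libraries. The locus 1700027A15Rik was at 0 and 0.570 FPKM in them, against 73.0 to 4539 FPKM in the other 4. Meg3, high in fetal and somatic tissue as well, was at 2.99 FPKM or more in them, against 0.409 to 2.47 FPKM in the other 4. The spermatogonial libraries were not free of H19 or Meg3. Over priSG-A replicates 1 to 3, H19 fell from 234 to 82.4 and 1.45 FPKM, the order of Malat1 there. Each priSG-B library held 32.7 to 34.8 FPKM of H19, above priSG-A replicate 3, though its Malat1 lay below that replicate. Meg3 fell from 18.9 to 8.57 and 1.33 FPKM over the priSG-A replicates, while priSG-B libraries had 1.85 to 2.24 FPKM. The part of these differences in the Malat1 levels of spermatids or spermatogonia was not tested.

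Inside the 12 libraries with high AY036118 the comparison narrows to 5 spermatid libraries against the 3 priSG-A libraries, since all priSG-B libraries are in the other set. Neat1 differed there by -0.92 (exact permutation p = 0.0179, the smallest that the 56 arrangements can give). Malat1 differed by -1.92 (exact permutation p = 0.107). Only 1 of the other 6 libraries is a spermatid library, so that set allows no such test. By set alone, Malat1 had a median of 689 FPKM over the 12 libraries and 302 FPKM over the 6, and Neat1 had 5.95 and 6.28 FPKM. Without the 5 libraries that stood apart, limma called both genes lower in spermatids, at -2.56 ± 0.39 (SE, limma adjusted p = 0.000115) for Malat1 and -0.67 ± 0.22 (SE, limma adjusted p = 0.0164) for Neat1, in a setting that called 87.6% of all tested loci.

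Malat1 exceeded Neat1 in all 18 libraries, and by how much varied from library to library. The ratio of their FPKM, which are per length, had a median of 76.2 and ran from 20.9 in rST replicate 2 to 354 in plpSC replicate 1. It was 351, 123 and 54.5 in priSG-A, 66.3, 73.1 and 79.2 in priSG-B, and 354, 195 and 65.3 in plpSC. It was 23.3, 21.7 and 98.5 in pacSC, 199, 20.9 and 95.3 in rST, and 160, 33.6 and 24.0 in elST. The ratio was steady in priSG-B alone. The log2 ratio differed between spermatids (5.67 ± 1.40) and spermatogonia (6.46 ± 0.98; SD, n = 6 each) by -0.79 and did not pass (exact permutation p = 0.29).

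Across the 18 libraries Malat1 and Neat1 levels rose and fell together only in part and did not pass after adjustment, with Pearson's r of 0.541 (permutation p = 0.0206, adjusted p = 0.0548) and Spearman's rho of 0.554 (permutation p = 0.01925, adjusted p = 0.0681), adjusted over 4 relations. Libraries share depth, scaling and cell type, so these points are not independent of them. Without priSG-A replicate 1 and plpSC replicate 1, the farthest from the median of Malat1, r was 0.477 (permutation p = 0.06125). Inside the 12 libraries with high AY036118 r was 0.635 (permutation p = 0.02738), and inside the other 6 it was 0.729 (exact permutation p = 0.11667). After quantile normalization of all libraries r was 0.918, so the strength of the relation depends on the scaling. Without that normalization the likeness was not close beside that of other loci. Ranked by r with Malat1, Neat1 held place 863 of 4116, and ranked by r with Neat1, Malat1 held place 584.

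**Figure D5:**
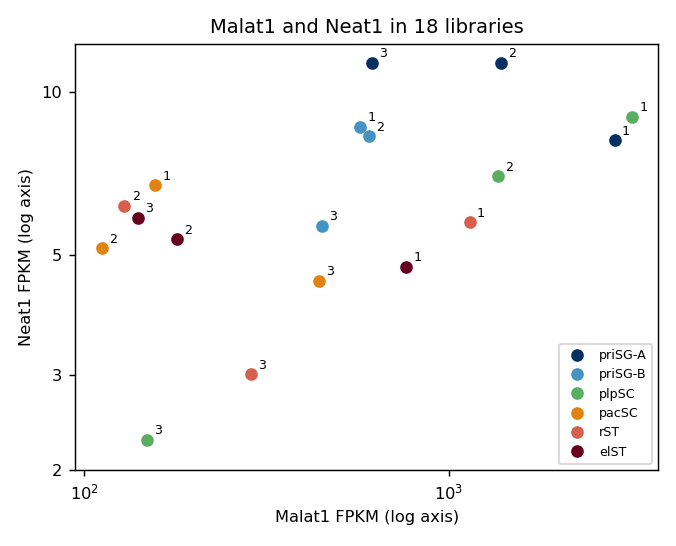
Neat1 FPKM (y axis) against Malat1 FPKM (x axis), both log axes, with 1 point per library, coloured by type and numbered by replicate. The points rise together with r = 0.541 over 18 libraries, and plpSC replicate 3 lies lowest at 2.28 FPKM of Neat1.

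The loci whose pattern was most like that of Malat1, by Pearson's r of log2 levels over the 18 libraries, are given as a description. Gm37376 came first with r = 0.981. It is a 453-base locus at chr19:5801941-5802393 on the plus strand, of an annotation class that awaits experiment, and all 453 of its exon bases lie inside the Malat1 exon on the other strand. Its level was 57.0 to 1159 FPKM, and its ratio to Malat1 was at least 0.306 with a median of 0.506. The kit that the labels name is not known to mark strand, and the strand setting of the counting is not given, so reads of Malat1 may stand in the values of Gm37376, which were not taken as a separate measurement. Next came Gm37018 (r = 0.975), Gm49839 (r = 0.973), Gm48342 (r = 0.969) and Gm37879 (r = 0.965). Gm37018, Gm49839 and Gm37879 lie on the same strand as the coding genes Enah, Fkbp5 and Tcf12, and Gm48342 lies antisense to Hmgcs1, so their reads may include reads of those genes.

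On the deposited scale, close likeness to other loci was seen for Malat1 and not for Neat1. Of 4116 loci, 130 had r above 0.9 with Malat1 and 0 with Neat1. After quantile normalization Neat1 had r = 0.918 with Malat1 itself. The loci most like Neat1 were Gm42502 (r = 0.767), Gm47689 (r = 0.75), Gm48086 (r = 0.732), Gm45399 (r = 0.731) and Gm19721 (r = 0.73). They overlap the coding genes Rac1, Ppp2r5e, Eif4ebp2, Rrm1 and Gnai2. The median r with all tested loci was -0.572 for Malat1 and -0.362 for Neat1.

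Other loci near the pair were then described, over a window of 250 kb on each side. The table holds 7, of which 6 were tested. Gm37376 lies in Malat1, and the others are antisense to coding genes. In the 7 comparisons limma called 0 of the 6, beside the shares of all loci given above. Frmd8os, which starts just beyond the 5′ end of Neat1 on the other strand, stayed at 0.231 to 1.95 FPKM. Gm42067, antisense to Dpf2, was at 10.5 FPKM or more in the 3 priSG-B libraries and lower in every other library, down to 0.0177 FPKM. Without the 5 libraries that stood apart, 2 of the 6 were called higher and 3 lower in spermatids against spermatogonia, a share near the 87.6% of all loci called there.

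Known nuclear long noncoding RNAs were listed as a background to the pair. Besides the pair the list has 16, of which 14 were in the table and 8 tested: Kcnq1ot1 and Airn, which silence imprinted genes beside them, Meg3 and Rian of an imprinted cluster, Firre, an X-linked RNA with a role in the placing of chromosomes, Tug1, which is needed for male fertility in mice, Pvt1, the neighbour of Myc, and Rmst. In the 7 comparisons limma called 0 of the 8, though leaving out rST replicate 1 or elST replicate 1 brought 3 and 4 calls in spermatids against spermatogonia, no more than the 57.2% and 51.2% of all loci called then. Their median log2 fold change in spermatids against spermatogonia was -0.55, against 0.55 for all tested loci. With no filter the median over loci was 0.004. Without the 5 libraries, 6 of the 8 were called lower in spermatids and 2 higher (Pvt1 and Rmst), beside 87.6% of all loci.

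Firre had the same split by replicate as Malat1. The rST libraries had 21.8, 0.553 and 0.324 FPKM of it and the elST libraries 14.8, 0.247 and 0.885 FPKM, against 16.6, 23.5 and 13.2 FPKM in priSG-A and 17.2, 17.1 and 12.2 FPKM in priSG-B. Replicate 1 of each spermatid type was at the spermatogonial level and the other 4 were below all spermatogonial libraries. Its log2 fold change over these types was -2.32 ± 0.88 (SE, limma adjusted p = 0.0997), and -3.63 (limma adjusted p = 5.1e-08) without the 5 libraries. Tug1 stayed between 13.1 and 37.1 FPKM in all 18 libraries, a narrower range than that of Malat1, and differed by -0.55 (limma adjusted p = 0.158). Xist and Tsix, the RNAs of X inactivation, stayed under the filter in every type.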

How the data were processed

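The authors deposited 1 table of FPKM for 13218 long noncoding loci in 18 libraries. The submitters' processing notes name HISAT2, StringTie and the build mm10 without versions. The annotation, strand setting and filters used are not given in these sources. Series text speaks of duplicates, the labels give 3 libraries per type, and all were used. FPKM are not counts, so no count test was run. Depth and fragment length (200 to 270 bp) were inferred from the FPKM steps of single-exon loci, where 95.5 to 98.7% of low values came out whole within 0.1.

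Loci that reached 1 FPKM in 3 or more libraries were tested as log2(FPKM + 1) with limma 3.58.1 (R 4.3.3, mean-variance trend, robust), with 1 coefficient for each type over the 18 libraries. Single values were tested by exact permutation (scipy 1.17.1), and correlations with 100000 resamples. Libraries stood apart when r with both others of their label was under 0.65 while those had r over 0.75. The alternatives were pseudocount 0.1, no filter, a filter of 5 FPKM, quantile normalization, no trend or robust estimation, and a fit of only the types compared. Further alternatives were the AY036118 set (divided at 100 FPKM) as a term, the high set alone, a replicate block, and leaving out each library. Leaving out the 5 libraries, and the spread after quantile normalization, were added after seeing the data. The limma fit was tested on simulated data, for spermatids against spermatogonia, and the other steps were not. The members and lists were chosen with earlier results of these data known. The genes named are the members, the 5 loci most like each, the tested members of the nuclear and nearby lists, and H19, Meg3, AY036118 and 1700027A15Rik as library descriptors. List members described singly were picked from these after their values were seen.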

Additional observations from a re-analysis of the deposited data

How the results depend on the processing

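In all, 506 alternative values were computed for 20 results. Of these, 468 kept their direction and side of the threshold, 25 changed sign, 13 newly passed and 0 stopped passing. Counts of loci in the lists are given apart. In this section limma results are judged by adjusted p, and exact permutation tests and the correlation by unadjusted p. The correlation of Malat1 with Neat1 thus counts as passing (permutation p = 0.0206), though it did not pass after adjustment (adjusted p = 0.0548). With the AY036118 set as a term, the signs of Malat1 turned in priSG-B over priSG-A (0.23), plpSC over priSG-B (-0.88), rST over pacSC (-0.23) and elST over rST (0.14), and that of Neat1 in rST over pacSC (0.029). Inside the high set, Malat1 turned in rST over pacSC (-0.34) and elST over rST (0.087) and Neat1 in rST over pacSC (0.078). In that set pacSC is replicate 3 alone, a library that stood apart. Quantile normalization turned Malat1 in plpSC over priSG-B (-0.91) and Neat1 in rST over pacSC (0.49), and gave Malat1 -2.43 in spermatids against spermatogonia (exact permutation p = 0.0152). Pseudocount 0.1 turned Neat1 in pacSC over plpSC (0.033). The cause was not tested. None of these limma values passed.

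Without the 5 libraries that stood apart, Malat1 passed in priSG-B over priSG-A (-1.89), plpSC over priSG-B (1.95), pacSC over plpSC (-3.97), spermatids over spermatogonia (-2.56, and -2.37 by exact permutation, p = 0.00794) and the F test (0.000137), Neat1 passed in spermatids over spermatogonia (-0.67), and the log2 ratio did so as well (-1.74, exact permutation p = 0.0476). Signs turned for Neat1 in plpSC over priSG-B (0.087) and Malat1 in plpSC over priSG-A (0.062). In the order of the 5 successive comparisons, then spermatids over spermatogonia, it called 3, 2, 6, 1, 0 and 8 of the 8 nuclear RNAs and 1, 2, 5, 2, 0 and 5 of the 6 nearby loci. In the same order, 10.9%, 11.6%, 71.2%, 58.3%, 41.7% and 87.6% of all tested loci were called.

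Leaving out each library in turn gave, for Malat1, -1.89 to -0.79 in priSG-B over priSG-A, -0.25 to 1.95 in plpSC over priSG-B, -3.39 to -1.19 in pacSC over plpSC, -0.039 to 1.53 in rST over pacSC, -1.13 to 0.48 in elST over rST, -1.58 to 0.63 in plpSC over priSG-A, and -1.90 to -1.12 in spermatids over spermatogonia by limma and -1.85 to -1.13 by exact permutation. For Neat1 it gave -0.72 to 0.087 in plpSC over priSG-B, -0.48 to 0.32 in pacSC over plpSC, -0.30 to 0.12 in rST over pacSC and -0.14 to 0.28 in elST over rST. Counts ran from 0 to 2 nuclear and 0 to 3 nearby loci in pacSC over plpSC, and from 0 to 4 and 0 to 3 in spermatids over spermatogonia. The share of all tested loci called ran from 0% to 28.5% in the first comparison and from 0.0243% to 57.2% in the second.

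The residual r of same-numbered libraries of different types was -0.83 to 0.87 over 45 pairs, and 25 were over 0.1. Its median was 0.13, against -0.1 for libraries of different numbers. Whether a replicate number marks a shared preparation was not tested. With the replicate block Malat1 in spermatids over spermatogonia stayed at -1.47 (limma adjusted p = 0.0725), no member's call changed, 2 nuclear and 2 nearby loci were called there, and calls over all loci numbered 1666 (40.5%), against 21 without the block. Calls over all loci in priSG-B over priSG-A, plpSC over priSG-B and spermatids over spermatogonia numbered 28, 52 and 21 as reported, 1, 2 and 0 with pseudocount 0.1, 76, 118 and 94 with no filter, 10, 21 and 0 with the filter of 5 FPKM, and 28, 41 and 56 after quantile normalization.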
